A study of Mus musculus with 18 samples.

Results

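The 10 serotonin receptor genes of the mouse studied here were followed through the nuclei of the hippocampus (Hip) and the prefrontal cortex (PFC). They were taken by gene symbol as Htr1a, Htr1b, Htr1d, Htr1f, Htr2a, Htr2c, Htr3a, Htr4, Htr5a and Htr7, and each symbol was found once among the 30905 genes of the deposited tables. The study applied single-nucleus RNA-seq to male Kun Ming mice of 8 weeks, with 3 mice in each of 3 groups and 1 Hip and 1 PFC library from every mouse. GF mice were raised germ-free, SPF mice carried a specific pathogen-free gut flora, and CGF mice were germ-free animals later co-housed with SPF mice so that they acquired their flora. All mice were untreated otherwise as far as the labels say, and no gene was altered in any group. The contrasts of GF with SPF, of CGF with SPF and of GF with CGF ask what the absence of a gut flora and its later return go with in each cell type.

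Serotonin reaches the hippocampus and the cortex along fibres of the raphe nuclei of the brainstem and acts there on receptors of several families. Receptors of the Htr1 and Htr5 families couple to inhibitory G proteins and lower cyclic AMP, Htr2a and Htr2c couple to Gq and phospholipase C. Htr4 and Htr7 couple to Gs and raise cyclic AMP, and Htr3a is a subunit of a cation channel. Htr2c transcripts are known to be abundant in the epithelium of the choroid plexus, and Htr3a marks interneurons that arise from the caudal ganglionic eminence. In these tables a receptor's level in a cell type is a property of its nuclear RNA, not of protein at the synapse.

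The genes lie on 9 chromosomes. By the GENCODE M21 annotation of GRCm38 (mm10, the build of the files), Htr1a (ENSMUSG00000021721) covers chr13:105443639-105448122 on the plus strand, Htr1b (ENSMUSG00000049511) chr9:81628291-81633828 on the minus strand, Htr1d (ENSMUSG00000070687) chr4:136423524-136444398 on the plus strand and Htr1f (ENSMUSG00000050783) chr16:64924729-65105854 on the minus strand. Htr2a (ENSMUSG00000034997) covers chr14:74640840-74709494 and Htr2c (ENSMUSG00000041380) chrX:146962513-147197277, both on the plus strand. Htr3a (ENSMUSG00000032269) lies at chr9:48899213-48911099 on the minus strand, Htr4 (ENSMUSG00000026322) at chr18:62324204-62496577 on the plus strand, Htr5a (ENSMUSG00000039106) at chr5:27842149-27855088 on the plus strand and Htr7 (ENSMUSG00000024798) at chr19:35958734-36057507 on the minus strand. The spans run from 4.48 kb for Htr1a, which has 1 exon, to 234.76 kb for Htr2c. Since nuclear RNA holds unspliced transcripts and the share of intronic reads that was counted is not known here, levels were compared between cell types and groups for 1 gene at a time and never between genes. Small RNA genes lie inside Htr2c, and antisense genes overlap Htr1b (D430036J16Rik) and Htr3a (Gm32335), whose reads may not have been told apart.

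The 18 libraries held 139924 barcodes, of which 138000 passed the study's limits on genes and mitochondrial UMIs (71398 in Hip and 66602 in PFC), and any 2 libraries shared 6 to 29 barcodes. Nuclei were clustered on variable genes, from which the receptors were not left out. The types were therefore not formed apart from the receptors whose levels are compared between them. Clusters were named from marker genes that include no serotonin receptor, so a name such as CA1 stands for CA1-like nuclei. Depth separated the groups in PFC, where the GF libraries held 59126586 to 71463928 UMIs, the SPF libraries 20336250 to 26949210 and the CGF libraries 22213863 to 26151503. In Hip the totals were 49067853 to 56240654 (GF), 55558458 to 63217083 (SPF) and 54526815 to 62313617 (CGF). The mitochondrial percentage of UMIs in GF libraries was above that of the others in Hip (0.645 to 1.10 against 0.077 to 0.471) and below it in PFC (0.359 to 0.594 against 1.28 to 3.22). GF status and these properties of the libraries cannot be told apart in any contrast with GF, whereas CGF and SPF libraries overlapped in total UMIs. The median UMIs per nucleus of a PFC library was nonetheless 2330 to 3013 in CGF and 3028 to 3187 in SPF mice. In 1 library, the PFC of mouse GF 7, 93.4% of the Pvalb nuclei and 48.1% of the Lamp5 nuclei sat in sub-clusters made up almost wholly of that library, so PFC results on these types are given with and without it. Without it the mean levels of Lamp5 and Pvalb nuclei were 335 and 159 CPM of Htr1f, 72.9 and 44.8 of Htr2a, 22.9 and 67.2 of Htr2c, 16.9 and 38.1 of Htr4, and 12.8 and 16.3 of Htr7 (n = 8). Htr3a in Lamp5 was at 4.88 CPM without it. Some names rest on weak lists, since the summed markers of L4/5 IT were higher in PFC Pvalb nuclei (1291 CPM) than in L4/5 IT nuclei (826), those of Hip Pvalb were as high in Lamp5 nuclei (173.3 against 173.2), and those of CA3 were near those in CA2 (2514 and 2507). The lists of L6 CT (5446 against 5112 in L6b), CA1 (590.3 against 499.9 in Subiculum) and L5 ET (305 against 208 in L5 NP) were not far above the next type, and in L4/5 IT, L5 ET and L6 CT 1 of 5 markers was highest in the type it names.

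A level is given here in CPM, the usual scaling of a gene's UMIs by the total UMIs of all nuclei of that type in a library. Its SD is over the 9 mice. Free RNA in the droplets gives every nucleus some UMIs of genes it does not use, so each neuron type was set beside the highest of the oligodendrocyte, astrocyte and OPC levels of the same library. Of the 11 neuron types of a region, Htr4 exceeded that glial level in all 9 libraries in 8 Hip types and 4 PFC types. Htr1f did so in 7 and 6, Htr7 in 7 and 7, Htr2a in 6 and 3, Htr2c in 5 and 5, and Htr3a in 2 and 2. Htr1a, Htr1b, Htr1d and Htr5a did so in no neuron type of either region. Their levels were low and are not read as expression from this comparison alone, although the level of Htr1b was not alike in all neuron types.

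**Figure D1:**
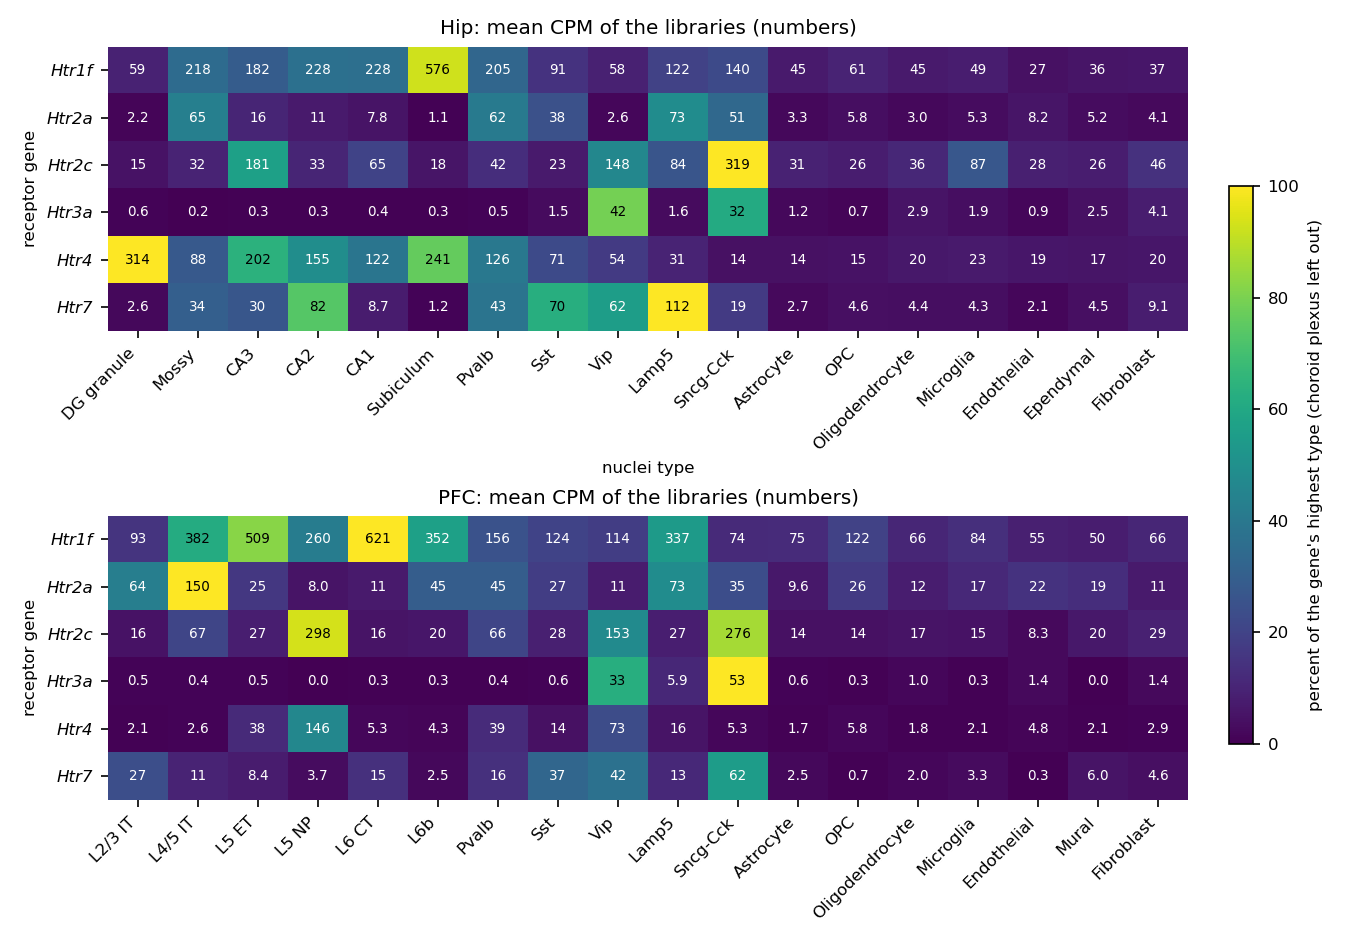
Heat map of 6 serotonin receptor genes (lines) by cell type (columns) in Hip (top) and PFC (bottom). Each number is the mean CPM over the mice with at least 10 nuclei of the type. The colour is that mean as a percent of the gene's highest type over both regions, choroid plexus left out. Htr4 peaks in the DG granule type of Hip (314 CPM) and in L5 NP of PFC (146 CPM), Htr1f in Subiculum (576 CPM) and L6 CT (621 CPM), and Htr3a has means of at most 5.89 CPM outside Vip and Sncg-Cck interneurons.

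Among the receptors coupled to inhibitory G proteins, Htr1f, the receptor targeted by the lasmiditan class of migraine drugs, had levels well above glia. In Hip it was highest in Subiculum at 576 ± 67.3 CPM (SD, n = 9), with 599.5, 573 and 643 CPM in the SPF mice, 553, 566 and 545 in the CGF mice and 612, 431 and 661 in the GF mice, and its lowest Subiculum library lay above the highest library of the next type. CA2 (228 ± 42.7), CA1 (228 ± 44.1), Mossy (218 ± 42.5), Pvalb (205 ± 44.97) and CA3 (182 ± 19.7) followed and overlapped one another. In PFC it was highest in L6 CT, the corticothalamic neurons of the deepest layer, at 621 ± 81.3 CPM, whose libraries (529 to 769) overlapped those of L5 ET (509 ± 38.8). L4/5 IT (382 ± 46.7), L6b (352 ± 74.7) and Lamp5 (337 ± 55.9) came next, while L2/3 IT, at 92.7 CPM, was within the glial range of 66.1 to 122 CPM. Htr1a, the receptor that serves as the autoreceptor of serotonin neurons, had means of 4.4 CPM in CA1 and 4.5 in PFC Sst nuclei, against 5.7 to 7.6 in Hip glia and 1.1 to 2.3 in PFC glia. Htr1b, a receptor of axon terminals, had 5.58 ± 2.03 CPM in CA1 and 7.88 ± 2.30 in L5 ET, above glia in 7 of 9 libraries each. Its CA1 libraries (2.87 to 9.88 CPM) did not overlap those of CA3 (0.17 to 1.11) or DG granule cells (0.16 to 1.51). In PFC its L4/5 IT libraries (5.25 to 8.15 CPM) did not overlap those of L6 CT (0.67 to 4.23). Htr1d was seen with 93 UMIs in all named Hip types and 87 in PFC. Its highest level, 7.26 ± 5.22 CPM in L6b, rested on 17 UMIs, and was above glia in 8 of 9 libraries. Htr5a did not exceed a mean of 9.35 CPM in any type.

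Of the Gq-coupled receptors, Htr2a, the main target of psychedelic drugs in the cortex, was highest in PFC L4/5 IT at 150 ± 33.3 CPM (103 to 199). Its other PFC levels above glia in every library were in Lamp5 (73.2 ± 23.6) and L2/3 IT (64.2 ± 13.2). In Hip it belonged mainly to interneurons and Mossy cells: Lamp5 (73.1 ± 19.8), Mossy (65.1 ± 20.9), Pvalb (61.8 ± 15.5), Sncg-Cck (50.8 ± 22.0) and Sst (37.5 ± 11.8) overlapped one another, while CA3, at 15.8 ± 4.26 CPM, overlapped the Sst libraries only. Hip glia were at 3.0 to 5.8 CPM.

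Htr2c, which is edited at the RNA level and regulates appetite and mood in the hypothalamus and midbrain, had its highest level in the choroid plexus, the secretory epithelium of the ventricles. The 835 choroid plexus nuclei came from 7 Hip libraries, none from CGF 18 or GF 5. They held 16508 ± 1825 CPM of Htr2c (SD, n = 7), 458 times the highest glial mean and without overlap with any other type. The name is well based there, since each of the 7 choroid plexus markers was highest in these nuclei, and their sum was 3253 CPM against 175 in the next type. Among neurons Htr2c was highest in Hip Sncg-Cck interneurons (319 ± 112 CPM), followed by CA3 (181 ± 44.3) and Vip interneurons (148 ± 62.9), and in PFC in L5 NP (298 ± 153), Sncg-Cck (276 ± 144) and Vip (153 ± 73.1), where neighbours in the order overlapped. Microglia of Hip averaged 86.9 CPM, but the libraries ran from 3.77 to 474, the highest being CGF 19, and no other exceeded 96.3.

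Htr3a, the channel subunit, was above glia in every Hip library in Vip (41.8 ± 14.8 CPM) and Sncg-Cck (32.2 ± 19.7) interneurons, and no other Hip type had a mean above 4.13 CPM. In PFC the same types led, with 52.9 ± 19.5 CPM in Sncg-Cck and 33.1 ± 16.97 in Vip. Lamp5 had 5.89 ± 4.25 CPM (4.88 ± 3.19 without GF 7), above glia in 8 of 9 libraries. The gene is sparse, with 385 UMIs in Hip and 299 in PFC.

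The Gs-coupled Htr4, a receptor that raises excitability of hippocampal principal cells, was broad in Hip. DG granule cells led with 314 ± 64.2 CPM, followed by Subiculum (241 ± 73.8), CA3 (202 ± 62.2), CA2 (155 ± 58.1), Pvalb (126 ± 29.8), CA1 (122 ± 36.0), Mossy (88.4 ± 23.9) and Sst (71.0 ± 23.7), each overlapping the next in the order. In PFC it was restricted to few types, with 146 ± 49.5 CPM in L5 NP, 73.2 ± 8.23 in Vip, 38.7 ± 12.7 in Pvalb and 38.0 ± 11.5 in L5 ET, against 1.7 to 5.8 in glia. The intratelencephalic types L2/3 IT and L4/5 IT had 2.10 ± 0.97 and 2.62 ± 0.76 CPM, within the glial range. Htr7, the other Gs-coupled member, was highest in Hip Lamp5 interneurons (112 ± 22.2 CPM), then CA2 (82.4 ± 31.9), Sst (70.1 ± 11.2), Vip (62.4 ± 30.2) and Pvalb (43.1 ± 10.96). In PFC it led in Sncg-Cck (62.1 ± 17.6), Vip (42.0 ± 16.1) and Sst (37.2 ± 7.29), with 26.9 ± 6.80 in L2/3 IT.

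Several types proved uneven inside. The sub-clusters were formed from all variable genes, receptors included, so their levels are a description and were not tested. CA3 held a larger sub-cluster of 2670 nuclei led by Gm32647 and Trps1 and a smaller one of 848 led by Vgll3 and Col6a1. Htr2c was at 50.5 ± 18.2 CPM in the larger and 686 ± 155 in the smaller, where it was also among the 10 leading genes. Htr4 was also higher in the smaller, at 463 ± 105 against 130 ± 46.8 CPM, as were Htr7 (24.2 ± 9.37 and 52.8 ± 17.1) and Htr2a (11.04 and 32.9), while Htr1f went the other way (211 ± 23.1 and 77.7 ± 11.1). No library of the larger sub-cluster overlapped the smaller one for Htr1f, Htr2c or Htr4.

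Among Hip Lamp5 interneurons, the larger sub-cluster (532 nuclei, led by Cacna2d1 and Hapln1) carried most Htr7, at 147 ± 28.0 CPM against 29.3 ± 9.09 in the smaller one (257 nuclei, led by Kit and Sv2c), and most Htr2c, at 108 ± 29.9 against 25.3 ± 16.98. The smaller one had more Htr2a (124 against 51.5 CPM) and more Htr1f (193 ± 63.3 against 86.3 ± 15.4), and Htr4 was alike in both (30.9 and 30.7). In PFC the L4/5 IT nuclei led by Scn7a had more Htr1f than those led by Pld5 and Rorb (510 ± 74.6 and 255 ± 34.5 CPM) and more Htr2c (104 ± 21.9 and 29.1 ± 7.86), whereas Htr2a differed little (159 and 142). The PFC Lamp5 nuclei led by Adarb2 and Rxfp1 had 23.4 CPM of Htr3a against 1.1 in those led by Pde11a, Sv2c and Kit, which in turn had more Htr2a (90.6 against 10.0) and Htr1f (372 ± 124 against 97.9 ± 31.1). Without GF 7 these were 20.5 and 0.23 for Htr3a, 10.8 and 92.1 for Htr2a and 102 and 406 for Htr1f. In L2/3 IT, Htr7 was at 41.0 and 30.6 CPM in the larger pair of sub-clusters and at 9.7 and 10.6 in the smaller pair.

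**Figure D2:**
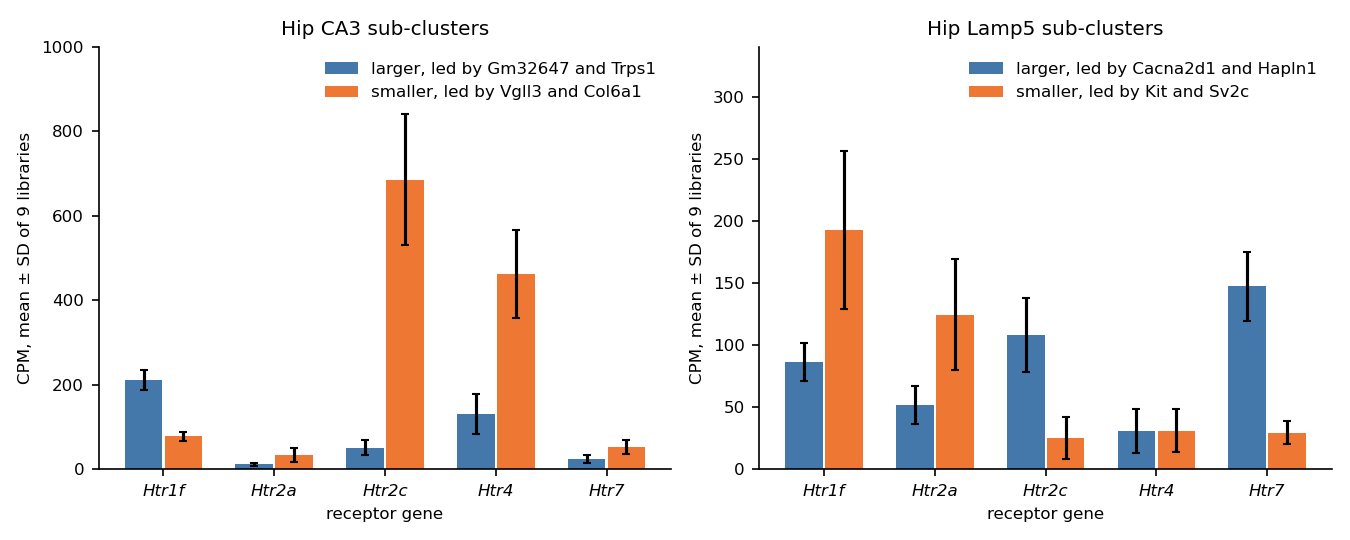
Mean CPM (bars) and SD over the 9 mice (lines) of 5 receptors in the larger and smaller sub-clusters of Hip CA3 (left) and Hip Lamp5 (right). In CA3 the smaller sub-cluster is higher for Htr2c (686 against 50.5 CPM) and lower for Htr1f (77.7 against 211), and in Lamp5 the larger one is higher for Htr7 (147 against 29.3) and lower for Htr2a (51.5 against 124).

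Groups were compared for every receptor and type that passed edgeR's filter on low counts, which 76 of 170 combinations did in Hip (17 types) and 54 of 180 in PFC (18 types), by edgeR's quasi-likelihood test on the sums of each library with Benjamini-Hochberg adjustment over all genes of a type. Htr1a was tested in 5 Hip and 2 PFC types, Htr1b in 2 and 3, Htr1d in 1 and 0, Htr1f in 16 and 15, Htr2a in 8 and 8, Htr2c in 16 and 10, Htr3a in 2 and 0, Htr4 in 14 and 7, Htr5a in 3 and 3, and Htr7 in 9 and 6. Fold changes are log2 and relative to TMM scaling, which moved them against the plain ratio of CPM means by a median over types of -0.09 (-0.18 to 0.07) for GF against SPF and -0.13 (-0.23 to 0.04) for GF against CGF in Hip, and of 0.09 (-0.07 to 0.23) and 0.08 (-0.17 to 0.23) in PFC. No called pair had the opposite sign by the plain ratio. Nothing in the labels tells apart the cage or litter of the mice, so the p-values measure the spread between these mice. By the study's account GF and CGF mice lived in isolators, and SPF mice were raised apart from them. Housing and flora thus cannot be told apart in contrasts with SPF mice.

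In Hip, the receptors that differed between GF and SPF were lower in GF. Of 76 tested combinations 21 were called, all of them lower (27.6%), where of all gene and type combinations 28.9% were called, 13.1% of them lower and 15.8% higher. These were 9 types of Htr4, 6 of Htr2c, 5 of Htr2a and 1 of Htr7, and none of 16 types of Htr1f. The median fold over the receptors was -0.42. Of the 21 calls, 12 held when each library in turn was left out, and 7 held under every alternative in which they were tested. These were Htr4 in CA1, CA3, Sst and oligodendrocytes, Htr2a and Htr7 in CA3, and Htr2c in oligodendrocytes. A total of 11 combinations, 1 of them higher, were called once the dependence of each library on the length and GC content of genes was removed. That removal gave folds that did not pass of -0.45 in CA2, -0.89 in Lamp5 and -0.52 in Mossy for Htr4, and of -0.94 in CA1, -1.22 in DG granule, -1.29 in Sncg-Cck and -0.64 in Sst for Htr2a. For Htr2c they were -0.35 in CA3, -1.11 in DG granule, -0.43 in Lamp5, -1.05 in astrocytes and -1.11 in OPC. Thinning all Hip libraries to 1 mean number of UMIs per nucleus and the count test DESeq2 each ended the calls of Htr4 in Mossy, Htr2a in Sncg-Cck and Sst, and Htr2c in Lamp5, and removing doublets ended those of Htr4 in Mossy and Htr2c in Lamp5.

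Htr4 was the receptor with most calls. In CA1 it stood at 147, 148 and 123 CPM in SPF mice, 150.3, 162 and 137 in CGF mice and 79.5, 86.1 and 63.8 in GF mice. The GF mice lay below all others, and the fold was -1.04 against SPF (SE 0.12, adjusted p = 0.000107). It was -1.18 against CGF (SE 0.12, adjusted p = 4.64e-05). In CA3 it was at 218, 218 and 233 CPM in SPF, 303, 247 and 218 in CGF and 119.6, 129 and 132 in GF mice, again with GF mice lowest. The folds were -0.996 (SE 0.11, adjusted p = 1.6e-05) and -1.25 (SE 0.11, adjusted p = 3.27e-06).

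The lower Htr4 of GF mice was seen inside the sub-clusters of these types too. The larger CA3 sub-cluster made up 72.9% of the type on average in SPF and 77.4% in GF mice. Its Htr4 was 68.0 to 78.1 CPM in GF mice against 143 to 147 in SPF mice, and in the smaller one it was 305 to 404 against 484 to 506. All 5 CA1 sub-clusters that had enough nuclei in each library gave lower GF means, for example 96.1 against 179 CPM in the one led by 4921539H07Rik and 121 against 216 in the one led by Gm12130, with overlap of GF and SPF mice only in the one led by C1qtnf7 (17.97 to 57.1 against 55.8 to 89.2).

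Htr4 also fell in Sst and Lamp5 interneurons and in CA2 and Mossy cells. Htr4 in Sst interneurons was at 74.2, 96.3 and 72.9 CPM in SPF mice, 87.3, 105 and 71.1 in CGF mice and 34.0, 53.7 and 43.9 in GF mice, with folds of -0.94 (SE 0.20, adjusted p = 0.00191) against SPF and -1.14 (SE 0.20, adjusted p = 0.000255) against CGF. In CA2 (fold -0.76, adjusted p = 0.0152), Mossy (-0.75, 0.0160) and Lamp5 (-1.14, 0.0155) the GF mean was lower than that of SPF mice too. These 3 calls were lost without 1 library or another: CA2 without GF 6, GF 7 or SPF 30 (-0.76 to -0.60), Mossy without GF 6 or SPF 31 (-0.69 and -0.71) and Lamp5 without GF 7, SPF 30 or SPF 31 (-1.05 to -0.95). Subiculum had a fold of -0.50 (adjusted p = 0.0547), Pvalb -0.19 (0.465) and Vip 0.67 (0.285), none of which passed.

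DG granule cells, the type with the highest Htr4, set CGF mice apart. Their levels were 298, 270.1 and 298 CPM in SPF, 389, 420.5 and 377 in CGF and 272, 263 and 242 in GF mice. The CGF mice lay above all others, while GF and SPF mice overlapped. CGF exceeded SPF by 0.52 (SE 0.07, adjusted p = 0.00685). GF was below CGF by a fold of -0.80 (SE 0.07, adjusted p = 1.46e-05), and GF differed from SPF by -0.28 (SE 0.07, adjusted p = 0.00852), which became 0.04 after removal of the length and GC trend. In the 2 largest DG granule sub-clusters the CGF mice (387 to 418 and 416 to 489 CPM) lay above the SPF mice (243 to 288 and 337 to 352), and in the smallest of 4 they overlapped. The call of CGF against SPF held under each alternative processing, with adjusted p from 5.72e-07 to 0.0327.

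**Figure D3:**
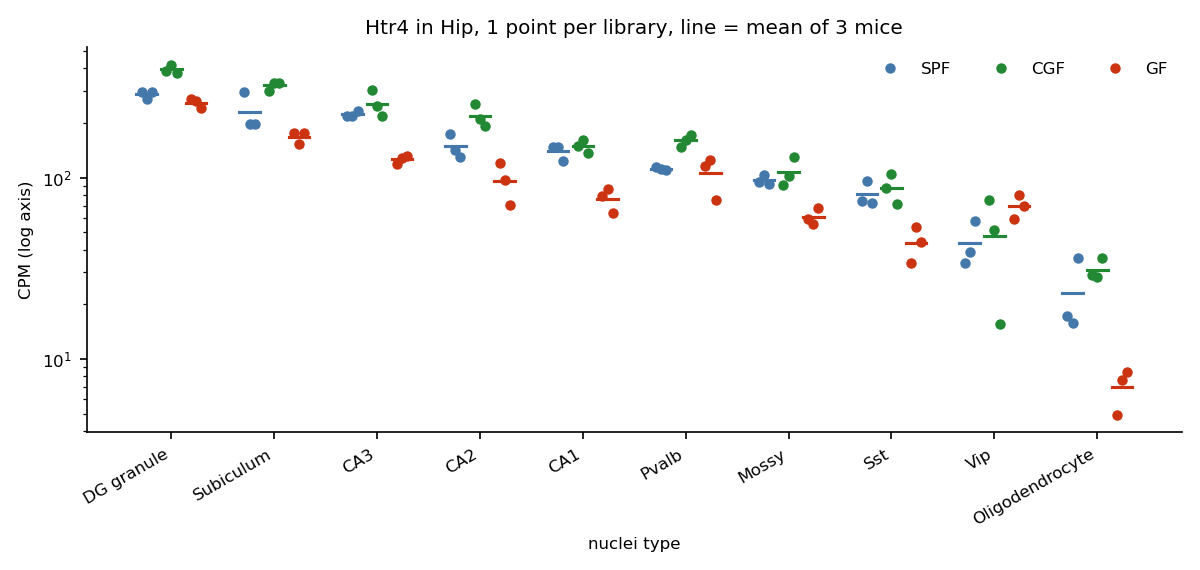
Htr4 in 10 Hip types, CPM on a log axis, 1 point per mouse and colour by group. In CA1 the GF mice sit between 63.8 and 86.1 CPM below the SPF (123 to 148) and CGF mice (137 to 162), and in DG granule cells the CGF mice sit between 377 and 420.5 above the rest.

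Glia gave calls of the same sign. Htr4 in oligodendrocytes was at 17.2, 15.8 and 36.1 CPM in SPF, 29.1, 28.2 and 35.9 in CGF and 4.93, 7.68 and 8.50 in GF mice (fold against SPF -1.70, SE 0.37, adjusted p = 0.00195), and in astrocytes the fold was -1.55 (SE 0.38, adjusted p = 0.00463). The astrocyte value was -0.28 (adjusted p = 0.672) without the gate, which keeps a nucleus only where the markers of its own class exceed those of any other. Htr2c fell by 1.82 on the log2 scale in oligodendrocytes (adjusted p = 0.00168), by 1.53 in astrocytes (0.00606) and by 1.44 in OPC (0.0161). The OPC call was lost without GF 6 (-1.36), GF 7 (-1.44) or SPF 32 (-0.95, adjusted p = 0.111). Slc17a7, a neuronal gene that oligodendrocytes do not use, was also lower in GF oligodendrocytes (162 CPM against 245 in SPF and 210 in CGF), and Gad1 was at 59.2, 65.6 and 63.9. Ttr, a gene of the choroid plexus where Htr2c is highest, had its highest mean in oligodendrocytes of GF mice, at 2645 CPM (10.7 to 6491) against 872 in SPF (311 to 1882) and 330 in CGF mice (23.6 to 750.0), with overlap of all groups. The part of RNA from other cells in these glial calls was not tested.

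Htr7 in CA3 was called as well, at 41.4, 35.6 and 31.7 CPM in SPF mice, 44.9, 35.0 and 31.9 in CGF mice and 15.3, 17.9 and 17.5 in GF mice. The GF mice lay below all others, with folds of -1.29 (SE 0.16, adjusted p = 4.19e-05) and -1.38 (SE 0.16, adjusted p = 1.96e-05), and both CA3 sub-clusters showed it (12.6 against 30.2 CPM of SPF in the larger, 34.1 against 60.5 in the smaller). Htr7 in Lamp5, its highest type, had a fold of -0.42 that did not pass (adjusted p = 0.110).

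Htr2a fell in 5 Hip types. In CA3 it was at 19.2, 19.1 and 16.6 CPM in SPF, 14.5, 19.5 and 20.4 in CGF and 11.9, 12.8 and 7.95 in GF mice, with folds of -0.95 (SE 0.20, adjusted p = 0.00143) and -0.97 (SE 0.20, adjusted p = 0.00115). The other calls were weaker: Sncg-Cck (-1.41, adjusted p = 0.0172), CA1 (-1.15, 0.0203), DG granule (-1.41, 0.0248) and Sst (-0.78, 0.0346) were each lost when 1 library or another was left out. This was so in Sncg-Cck without GF 5, GF 7 or SPF 31 (-1.34 to -1.18), in DG granule without GF 5, GF 6, SPF 30 or SPF 32 (-1.26 to -1.19) and in Sst without GF 5, GF 6, SPF 30 or SPF 31 (-0.77 to -0.57). In CA1 the fold was -1.02 without GF 7 (adjusted p = 0.0726) and -0.52 without SPF 30, the highest library at 18.1 CPM (adjusted p = 0.0848). DG granule cells held 1.34 CPM in GF and 3.26 in SPF mice, below the highest glial mean of 5.8.

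Htr2c in CA3 was at 223, 219.9 and 214 CPM in SPF, 238, 135 and 170.2 in CGF and 128, 127 and 178 in GF mice. The GF and SPF mice did not overlap (fold -0.78, SE 0.17, adjusted p = 0.00204). The CGF mice spanned both. The smaller CA3 sub-cluster, which carries most of this transcript, was 11.6 to 26.0% of CA3 nuclei in GF and 22.5 to 29.0% in SPF mice, and inside the sub-clusters GF and SPF libraries overlapped, with means of 622 and 781 CPM in the smaller and 41.5 and 62.0 in the larger. Whether the share of this sub-cluster accounts for the call was not tested. In Lamp5 the fold was -0.71 (adjusted p = 0.0369), a call lost without GF 5, GF 7, SPF 31 or SPF 32 (-0.77 to -0.46), and in DG granule cells -1.46 (adjusted p = 0.0102) at 8.79 and 21.4 CPM, below the glial mean. Htr2c in Sncg-Cck, its highest Hip neuron type, had a fold of -0.36 (adjusted p = 0.484), and in Vip 0.59 (0.258).

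Few receptors differed between CGF and SPF mice. Of 76 combinations 2 were called between them (2.63%, with 0.431% of all combinations called), both higher in CGF, where 0.263% of all were higher. An unadjusted p below 0.05 was seen in 15 of the 76, and in 15440 of all 153890 combinations. Beside Htr4 in DG granule cells, which held under each alternative, the other was Htr1f in CA1, at 205, 173 and 208 CPM in SPF, 251, 295 and 294 in CGF and 224, 182 and 216 in GF mice. The CGF mice lay above the rest (fold against SPF 0.55, SE 0.11, adjusted p = 0.0467), but the call was lost without CGF 17, CGF 18, CGF 19, GF 7, SPF 30, SPF 31 or SPF 32, with folds of 0.48 to 0.63. It was also lost with the length and GC trend removed (0.47), with doublets removed (0.56) and after thinning (0.53). Htr4 was higher in CGF than in SPF mice in all 14 tested Hip types by fold (0.05 to 0.65), with 0.52 in Subiculum (adjusted p = 0.286) and 0.65 in CA2 (0.231) among those that did not pass. The TMM scaling moved folds of this contrast by a median over types of 0.05 (-0.05 to 0.15). The types come from the same mice and are not independent of one another.

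GF against CGF gave 24 calls of 76 (31.6%, with 30.9% of all combinations called), 23 lower and 1 higher in GF, where 14.2% of all were lower and 16.7% higher. The CGF mice are shared with the contrast above and the GF mice with the first. Htr4 made 11 of the calls, in DG granule, CA1, CA2 (-1.42), CA3, Subiculum (-1.03), Mossy (-0.95), Pvalb (-0.74), Lamp5 (-1.24), Sst, oligodendrocytes (-2.10) and astrocytes (-1.86). Htr1f was lower in CA1 (-0.64), CA2 (-0.64) and CA3 (-0.41), the last of which became 0.11 after the length and GC trend was removed. Htr2c was lower in CA3 (-0.56), Lamp5 (-0.93), astrocytes (-1.42), oligodendrocytes (-1.42) and microglia (-3.97). The microglial value, with 1, 6 and 3 UMIs of Htr2c in the GF mice, turned on CGF 19 and was -1.89 without it (adjusted p = 0.0483). At these GF counts the pair can have passed the filter on low counts only through the SPF and CGF libraries. Htr2a was lower in CA3 and Sncg-Cck (-1.18) and higher in Lamp5 (0.65), where CGF mice were low (45.8, 57.2 and 45.6 CPM against 101.1, 73.1 and 79.5 in GF). Htr7 was lower in CA3 and in DG granule cells (-1.30, at 1.70 against 3.58 CPM). Some of these calls were lost without 1 library: Htr2a in Lamp5 without CGF 17, CGF 19 or GF 5 (0.46 to 0.59) and in Sncg-Cck without any 1 of the 6 GF and CGF mice (-1.44 to -1.002). So were Htr2c in CA3 without CGF 17, GF 5 or GF 6 (-0.49 to -0.31), in Lamp5 without CGF 17 (-0.74) and in oligodendrocytes without GF 5 (-1.08), and Htr7 in DG granule cells without CGF 18 or GF 5 (-1.10 and -1.09). In all, 10 of the 24 calls held under every alternative in which they were tested, 7 of them Htr4 (CA1, CA2, CA3, DG granule, Subiculum, Sst and oligodendrocytes), with Htr2a and Htr7 in CA3 and Htr2c in microglia. Without the length and GC trend the folds that did not pass were -0.21 in CA1 and -0.20 in CA2 for Htr1f, -0.94 in Lamp5, -0.66 in Mossy and -0.38 in Pvalb for Htr4, and -0.02 in CA3, -0.57 in Lamp5, -0.87 in astrocytes and -0.79 in oligodendrocytes for Htr2c. They were also -1.04 for Htr2a in Sncg-Cck and -1.02 for Htr7 in DG granule cells. Without the gate Htr4 in astrocytes was -0.42 (adjusted p = 0.497) and Htr2c in astrocytes -1.05 (0.0545). DESeq2 ended the call of Htr2a in Lamp5, and DESeq2 and thinning each that in Sncg-Cck.

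In the choroid plexus Htr2c did not differ detectably between groups. It was at 16137, 18085 and 14152 CPM in the SPF mice, 19175 and 17470.2 in CGF 17 and CGF 19, and 15854 and 14680.2 in GF 6 and GF 7, so that the SPF mice overlapped both other groups while the GF mice lay below the CGF mice. The fold was -0.03 for GF against SPF (SE 0.16, adjusted p = 0.920, exact two-sided permutation p = 0.7, smallest possible 0.1), 0.22 for CGF against SPF (SE 0.16, adjusted p = 0.917, exact permutation p = 0.3, smallest possible 0.1) and -0.26 for GF against CGF (SE 0.17, adjusted p = 0.367, exact permutation p = 0.333, the smallest possible). Of the 7445 genes tested in these nuclei 15.8% were called between GF and SPF. Ttr, the main secreted product of this epithelium, was at 23378 CPM in GF and 4326 in SPF nuclei. For the other contrasts 0.0403% (CGF against SPF) and 11.2% (GF against CGF) were called.

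In PFC the receptors differed in both directions. Between GF and SPF 15 of 54 combinations were called (27.8%, with 46% of all combinations called), 9 higher and 6 lower in GF, where 23.3% of all were higher and 22.6% lower. The median fold over the receptors was -0.05. Of the 15 calls, 9 held when each library in turn was left out, and 7 held under every alternative in which they were tested. These were Htr2c in L5 NP, Vip, Sncg-Cck, L6 CT and astrocytes, Htr4 in L5 NP and Htr1f in astrocytes. Without the length and GC trend the folds of Htr2c in L4/5 IT (0.28) and Pvalb (0.47) and of Htr4 in L5 ET (0.54) did not pass. The GF libraries of this region are the deep ones, and after thinning all PFC libraries to 1 mean depth 12 of 47 combinations were called. Thinning ended the calls of Htr4 in Pvalb (0.76, adjusted p = 0.0583), Htr1f in L5 ET (0.31) and Htr5a in L2/3 IT (-0.62).

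The rises were mostly of Htr2c, in the types where it is highest. In L5 NP it was at 279, 201 and 198 CPM in SPF, 128, 205 and 217 in CGF and 573, 378 and 499.7 in GF mice, and the GF mice lay above all others. The fold was 1.22 against SPF (SE 0.20, adjusted p = 1.93e-05) and 1.47 against CGF (SE 0.21, adjusted p = 3.09e-06). In Vip interneurons it was at 58.5, 86.8 and 137 CPM in SPF, 105, 149 and 116 in CGF and 245, 208 and 271 in GF mice, again without overlap (fold 1.42, SE 0.24, adjusted p = 9.73e-06 against SPF, and 1.08, SE 0.23, adjusted p = 0.000473 against CGF).

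Sncg-Cck interneurons followed with 101.4, 129.8 and 286 CPM in SPF, 119, 229 and 374 in CGF and 443, 312 and 494 in GF mice. GF and SPF mice did not overlap (fold 1.38, SE 0.32, adjusted p = 0.00189), GF and CGF mice did (fold 0.96, adjusted p = 0.0166, lost without CGF 17, CGF 18 or GF 7, with 0.64 to 0.92). Htr2c rose less in L4/5 IT (fold 0.53, SE 0.13, adjusted p = 0.00310) and in Pvalb (0.78, SE 0.26, adjusted p = 0.0168), where the groups overlapped. In the L4/5 IT sub-cluster led by Scn7a it was at 112 to 144 CPM in GF and 91.1 to 105 in SPF mice, and in the other at 23.3 to 30.1 and 16.5 to 44.9, values whose difference was not tested. Without GF 7 the Pvalb fold was 0.95 (adjusted p = 0.00392). It was 0.58 without the gate on each nucleus (adjusted p = 0.0636), and the call was lost without GF 5 (0.60, adjusted p = 0.0710) or SPF 31, the lowest library at 26.6 CPM (0.44, adjusted p = 0.193).

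Htr2c fell where it is low. In L6 CT it was at 30.3, 18.8 and 19.5 CPM in SPF, 19.2, 23.8 and 13.6 in CGF and 8.92, 6.79 and 5.64 in GF mice (fold -1.48, SE 0.26, adjusted p = 0.000131). In astrocytes the fold was -1.74 (SE 0.37, adjusted p = 0.000372) and in L2/3 IT -0.88 (SE 0.31, adjusted p = 0.0252), the last lost without GF 6, GF 7, SPF 30 or SPF 32 (-0.86 to -0.59). These levels lie near the glial means of 14.3 to 16.7 CPM. Astrocytes held 6.63 CPM in GF and 23.7 in SPF mice. At that GF level the pair can have passed the filter on low counts through the other groups. In PFC oligodendrocytes the neuronal Slc17a7 was at 245 CPM in SPF mice, 177 in CGF mice and 210 in GF mice, with overlap of GF and SPF mice, and Gad1 at 37.1, 32.6 and 61.9. Likely doublets made up 7.42%, 9.83% and 0.262% of the oligodendrocytes in the same order. The part of neuronal RNA in these values was not tested.

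**Figure D4:**
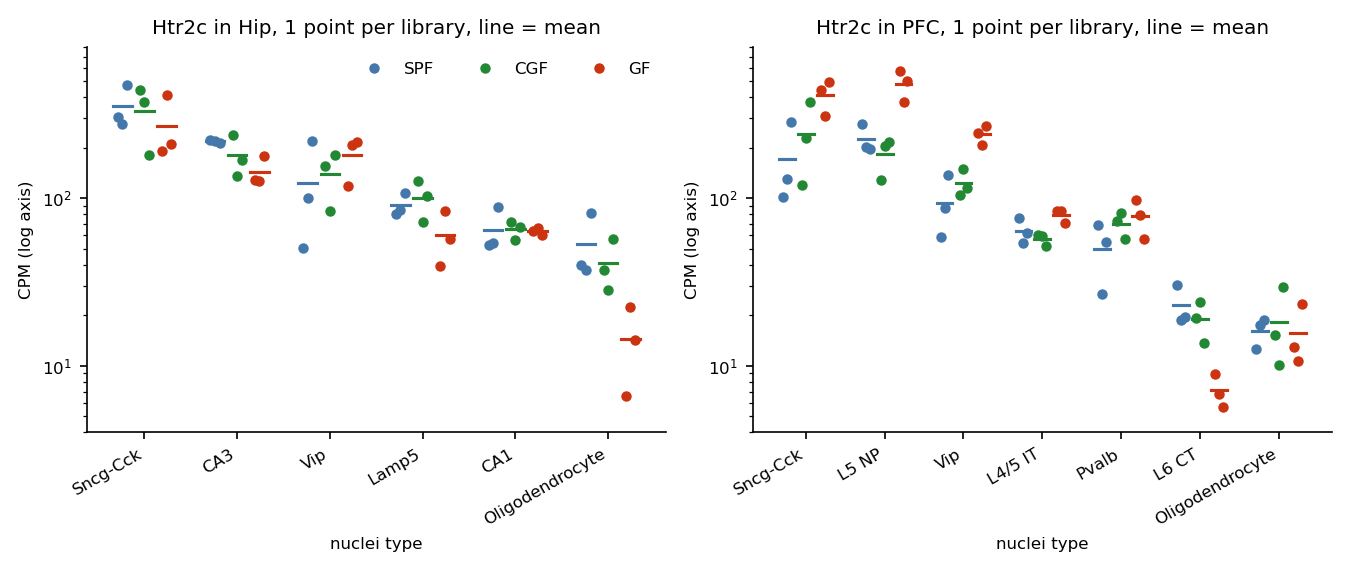
Htr2c by group in Hip (left) and PFC (right), CPM on a log axis, 1 point per mouse. In PFC the GF mice lie above the SPF mice in L5 NP (378 to 573 against 198 to 279 CPM), Vip (208 to 271 against 58.5 to 137) and Sncg-Cck (312 to 494 against 101.4 to 286), and in Hip CA3 they lie below them (127 to 178 against 214 to 223).

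Htr4, which fell in many Hip types, was higher in 3 PFC types of GF mice. In L5 NP it was at 127, 112 and 119 CPM in SPF, 147, 115 and 80.5 in CGF and 242, 186 and 181 in GF mice, with the GF mice above all others and Htr4 itself among the 10 leading genes of this type (fold 0.90, SE 0.22, adjusted p = 0.00194 against SPF, and 0.9999, SE 0.23, adjusted p = 0.00108 against CGF). In Pvalb it was at 43.2, 20.5 and 17.5 CPM in SPF, 35.5, 41.3 and 43.8 in CGF and 58.3, 44.6 and 43.2 in GF mice (fold 1.01, SE 0.28, adjusted p = 0.00454, and 1.08 without GF 7, adjusted p = 0.00519). In L5 ET the fold was 0.84 (SE 0.24, adjusted p = 0.00762), with overlap of the groups and 0.57 without SPF 31 (adjusted p = 0.0597). In PFC Vip, where Htr4 was second highest, the fold was 0.10 (adjusted p = 0.821). L5 NP nuclei numbered 178 in SPF, 175 in CGF and 477 in GF mice.

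Htr1f, Htr2a and Htr5a gave the remaining PFC calls. Htr1f fell in astrocytes (-0.82, SE 0.21, adjusted p = 0.00279), where it was at 50.3 CPM in GF and 89.4 in SPF mice. The gate removed 5.71% of GF and 15.1% of SPF astrocytes, and the part of RNA from other cells in astrocyte Htr1f was not tested. In L5 ET Htr1f was at 493, 453 and 518 CPM in SPF and 529, 526 and 519 in GF mice (fold 0.35, adjusted p = 0.0338). The plain ratio of means there is 0.10 on the log2 scale, removing the length and GC trend gave -0.11, and the call was lost without GF 5, GF 6, GF 7, SPF 30 or SPF 31 (0.28 to 0.36). Htr2a in L4/5 IT, its highest type, was at 146, 199 and 193 CPM in SPF, 148, 181 and 132 in CGF and 103, 131 and 120.4 in GF mice (fold -0.40, SE 0.16, adjusted p = 0.0439), and this call was lost without CGF 17, GF 5, GF 7, SPF 31 or SPF 32 (-0.42 to -0.31). Htr5a in L2/3 IT was at 3.29 CPM in GF and 6.27 in SPF mice (fold -0.77, adjusted p = 0.0329), both within the range of the PFC glial means (2.27 to 6.49), and the call was lost without GF 5, GF 7, SPF 30 or SPF 31 (-0.80 to -0.45). Htr1f in L6 CT, its highest type, did not pass (0.23, SE 0.13, adjusted p = 0.148).

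Between CGF and SPF mice none of the 54 PFC combinations was called by edgeR or by DESeq2, while 0.172% of all combinations were called by edgeR (0.1% higher and 0.0725% lower). An unadjusted p below 0.05 by edgeR was seen in 8 of the 54, and in 10808 of all 120037 combinations. The fold of Htr2c was -0.25 in L5 NP (SE 0.26, adjusted p = 0.869) and 0.34 in Vip (SE 0.30, adjusted p = 0.865). GF against CGF gave 12 calls (22.2%, with 45.4% of all called), 7 higher and 5 lower, where 23.1% of all were higher and 22.3% lower. Beside those given above, Htr2c was higher in L4/5 IT (0.68) and L5 ET (0.58) and lower in L6 CT (-1.25) and L2/3 IT (-0.86), Htr1f was lower in astrocytes (-0.79) and Pvalb (-0.44), and Htr2a was higher in Lamp5 (0.60) and lower in Sst (-1.04). Without GF 7 the Pvalb value was -0.43 (adjusted p = 0.0595) and the Lamp5 value 0.58 (adjusted p = 0.112). Calls were also lost for Htr1f in Pvalb without CGF 17, CGF 18 or GF 6 (-0.46 to -0.27) and in astrocytes without CGF 18 (-0.50). The same held for Htr2a in Lamp5 without CGF 17, CGF 18, GF 6, SPF 31 or SPF 32 (0.45 to 0.61) and in Sst without CGF 18 (-0.94), and for Htr2c in L2/3 IT without CGF 18, GF 6 or GF 7 (-0.84 to -0.57). In all, 5 of the 12 calls held under every alternative in which they were tested, namely Htr2c in L5 NP, Vip, L4/5 IT and L6 CT and Htr4 in L5 NP. Without the length and GC trend Htr2c was 0.25 in L5 ET and 0.62 in Sncg-Cck and Htr2a 0.30 in Lamp5, none of which passed. Thinning took Htr2a in Sst to -0.55 (adjusted p = 0.219) and ended the calls of Htr2a in Lamp5 and Htr2c in Sncg-Cck, as DESeq2 did for these last 2 and for Htr1f in Pvalb. Without the gate Htr1f in Pvalb (-0.30) and Htr2a in Lamp5 (0.39) did not pass.

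The 10 types found in both regions allowed Hip to be compared with PFC within a group of mice. This was done in the GF mice, whose PFC libraries were each deeper than every Hip one, with the SPF mice beside them, whose PFC libraries were shallower than those of Hip. The filter on low counts was applied over both regions together, so a receptor could pass through the region where it is higher. In GF mice 13 of 40 receptor and type combinations were called (32.5%, with 4.44% of all combinations called), 7 higher and 6 lower in Hip, where 2.2% of all were higher and 2.24% lower. In SPF mice 19 of 40 were called (47.5%, with 31.1% of all called), 14 of them higher in Hip, where 15.9% of all were higher. With the mouse as a block the counts were 15 and 25, and no call was lost. After thinning all libraries to 1 mean depth 5 of 27 were called in GF mice and 14 of 27 in SPF mice. Under every alternative in which they were tested, 5 of the 13 and 10 of the 19 calls held.

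Htr7 in Lamp5 interneurons showed the largest regional fold called in GF mice among neurons. It did not pass the filter on low counts in PFC alone and entered through Hip, where it is higher. It was at 96.4, 119 and 77.9 CPM in Hip and 17.97, 12.7 and 15.03 in PFC of the GF mice, a fold of 2.70 (SE 0.26, adjusted p = 1.03e-09). In SPF mice it was called too, at 131, 143 and 95.7 CPM in Hip and 0, 8.28 and 9.64 in PFC. The PFC levels of SPF mice rest on 0, 2 and 3 UMIs, so no fold is given. Without GF 7, many of whose PFC Lamp5 nuclei stand apart, the fold in GF mice was 2.83. The Lamp5 nuclei of the regions are not made up alike, since in Hip the larger sub-cluster was led by Cacna2d1 and in PFC by Pde11a, and whether the difference lies between matched kinds of Lamp5 nuclei was not tested. Htr1f in the same type went the other way, at 106, 155 and 167 CPM in Hip and 319.6, 286 and 352 in PFC of the GF mice (fold -1.15, SE 0.18, adjusted p = 1.28e-05, and -1.21 without GF 7) and with a fold of -1.40 in the SPF mice (SE 0.20, adjusted p = 9.41e-07).

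Sst and Pvalb interneurons had more Htr4 and Htr7 in Hip. Their summed markers were lower in Hip than in PFC, at 173.2 against 487.7 CPM for Pvalb and 1234 against 2599 for Sst. Whether the regions hold matched kinds of these nuclei was not tested. Htr4 in Sst was at 34.0, 53.7 and 43.9 CPM in Hip and 11.9, 21.7 and 13.4 in PFC of GF mice (fold 1.45, SE 0.25, adjusted p = 0.000132), and the fold in SPF mice was 3.16 (SE 0.33, adjusted p = 2.86e-09), on 4, 3 and 6 UMIs in PFC. Htr4 in Sst did not pass the filter on low counts in PFC alone and entered through Hip. In Pvalb the Htr4 levels of GF mice were 116, 125 and 75.6 CPM in Hip and 58.3, 44.6 and 43.2 in PFC (fold 1.11, SE 0.18, adjusted p = 0.000105, and 1.25 without GF 7), and the SPF fold was 2.33 (SE 0.26, adjusted p = 1.2e-08). Htr7 in Sst was at 78.2, 77.5 and 71.5 CPM in Hip and 39.7, 40.5 and 24.7 in PFC of GF mice (fold 1.09, SE 0.20, adjusted p = 0.000228), with an SPF fold of 0.83 (adjusted p = 0.00559, and 0.63 without SPF 30, adjusted p = 0.0985). Htr7 in Pvalb had folds of 1.58 in GF mice (adjusted p = 0.000854) and 1.75 in SPF mice (adjusted p = 0.000303). Without GF 7 the GF value was 1.23 (adjusted p = 0.106), and after thinning 0.97 (adjusted p = 0.235).

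Sncg-Cck interneurons had less Htr7 in Hip than in PFC of GF mice, at 24.3, 10.6 and 38.9 against 59.9, 69.3 and 91.2 CPM (fold -1.64, SE 0.51, adjusted p = 0.0493), a call lost without any 1 of the GF mice (-1.79 to -1.38). In SPF mice it was called with the block only (blocked adjusted p = 0.0390). Htr1f in Pvalb was higher in Hip of GF mice (fold 0.63, adjusted p = 0.0210), with 0.53 without GF 6 (adjusted p = 0.223), 0.68 without GF 7 (adjusted p = 0.107) and 0.62 after thinning (0.0565). In SPF mice it was called with the block only (0.0256).

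The other regional calls in GF mice fell on glia. Htr2a was lower in Hip astrocytes (-2.76, at 1.56 CPM against 10.6 in PFC), OPC (-2.64, 3.84 against 24.7) and oligodendrocytes (-2.29, 2.11 against 11.5). At these Hip levels they can have passed the joint filter through PFC, and they were not tested after thinning. The part of RNA from other cells in the glial calls between regions, in GF and in SPF mice, was not tested. Htr1f was lower in OPC (-0.94) and Htr4 was higher in astrocytes (2.42, with 7, 8 and 7 UMIs in Hip and 3, 0 and 2 in PFC), neither of which passed after thinning. With the block, Htr2c in astrocytes (1.05, adjusted p = 0.174 without and 0.0489 with the block) and in Lamp5 (0.82 and 0.88, adjusted p = 0.1395 and 0.0351) was called too. Without GF 7 and without the block the Lamp5 fold was 1.52 (adjusted p = 0.00886). In SPF mice the further calls were Htr2c in Lamp5 (1.85, SE 0.41, adjusted p = 0.000449) and Sncg-Cck (1.03), Htr2a in Pvalb (0.88) and Sst (0.84), Htr1f in Vip (-1.23). In glia they were Htr1f in astrocytes (-1.05), Htr1f (-1.02), Htr2a (-2.02) and Htr2c (1.66) in OPC and Htr2c in oligodendrocytes (1.66). In PFC of SPF mice Htr2c was at 27.5 CPM in Lamp5, 12.1 in OPC and 16.2 in oligodendrocytes. At these PFC levels the 3 pairs can have passed the joint filter through Hip, where they are higher. Htr4 and Htr1a were called too, but so few UMIs were seen in PFC that no fold is given. Htr4 had 19, 26 and 58 UMIs in astrocytes of Hip and 0, 1 and 1 in those of PFC, and 30, 23 and 81 against 0, 0 and 1 in oligodendrocytes. Htr1a had 11, 8 and 26 against 0, 1 and 0 in astrocytes. The block added Htr1f in endothelial nuclei (adjusted p = 0.0175), Htr2a and Htr2c in astrocytes (0.0375 and 0.0367) and Htr2c in microglia (0.0370). In GF mice the glial calls were lost for Htr2a in astrocytes without GF 7 (-2.30), in OPC without GF 5 or GF 6 (-2.44 and -2.54) and in oligodendrocytes without any 1 mouse (-2.92 to -2.04). They were also lost for Htr1f in OPC without GF 5 or GF 6 (-1.05 and -0.57) and for Htr4 in astrocytes without GF 6 or GF 7 (1.78 and 2.57). In SPF mice calls were lost for Htr2a in Sst without SPF 30 or SPF 31 (0.72 and 0.72), for Htr2c in Sncg-Cck without SPF 30 or SPF 31 (0.93 and 0.99), for Htr1f in Vip without SPF 30 or SPF 32 (-0.99 and -1.03). In glia they were lost for Htr1a in astrocytes without SPF 30 or SPF 32, Htr1f in OPC without SPF 30 or SPF 32 (-0.76 and -0.98), Htr2a in OPC without SPF 30 (-1.58), Htr2c in OPC without any 1 mouse (1.41 to 1.85) and Htr2c in oligodendrocytes without SPF 32 (1.38).

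The machinery around the receptors was followed in 4 abundant types by a list of 37 genes of serotonin synthesis, transport and breakdown, further receptors and coupling proteins. Of its genes tested between GF and SPF, 3 rose and 11 fell of 32 in DG granule cells (43.8%, with 46.9% of all genes of the type called), and 2 rose and 13 fell of 30 in CA1 (50.0%, with 46.7%). In PFC 9 rose and 10 fell of 30 in L2/3 IT (63.3%, with 59%), and 7 rose and 8 fell of 24 in L5 ET (62.5%, with 53.7%). Over all types of a region, 15.8% of gene and type combinations were higher and 13.1% lower in Hip, and 23.3% and 22.6% in PFC. The shares called in the 4 types were near those of all genes of the type. The genes named below therefore describe the list and are not a result particular to it. The calls of this list come from the main fit alone, and no alternative was run on them. None was called between CGF and SPF in these types, where 1.92% (DG granule), 0.747% (CA1), 0.195% (L2/3 IT) and 0.0723% (L5 ET) of all genes were. In DG granule cells and CA1 the members that fell included Gnaq, the Gq subunit on which Htr2 receptors act (-0.43 and -0.51), Plcb1, the phospholipase below it (-0.50 and -0.59), and the adenylyl cyclases Adcy2 (-0.79 and -0.72) and Adcy8 (-0.66 and -0.82). Arrb1 (-0.50 and -0.43), Gnao1 (-0.22 and -0.47), Adcy1 (-0.38 and -0.41) and Kcnj6 (-0.31 and -0.31) fell in both as well. Arrb2, an arrestin that desensitises receptors, rose in both (1.003 and 0.92). In DG granule cells Htr2b (0.54) and S100a10 (1.43) rose and Kcnj3 (-0.32), Plcb4 (-1.70) and Gnai3 (-0.24) fell, and in CA1 Rgs4 rose (0.57) and Maoa (-0.45), Gnai2 (-0.59), Adcy5 (-0.47) and Gnal (-0.44) fell. Gnai1 was called in CA1 at -0.18, but its CPM means were 115.3 in GF and 115.7 in SPF mice. The TMM scaling moved folds by -0.13 in DG granule cells, -0.17 in CA1, 0.15 in L2/3 IT and 0.23 in L5 ET.

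In L2/3 IT and L5 ET the cyclase Adcy1 fell (-1.44 and -1.14), as did Rgs4, which shortens G protein signals (-1.59 and -1.64), Gnai2, an inhibitory subunit (-1.27 and -1.32), and the receptor Htr6 (-1.71 and -1.14), while Kcnj3, a potassium channel subunit opened by inhibitory receptors, rose (0.80 and 1.05). Maoa (0.67 and 0.76), Gnai3 (0.78 and 0.83) and Ric3 (0.64 and 0.60) rose in both and Arrb1 (-0.91 and -1.05), Arrb2 (-1.05 and -0.67) and Adcy5 (-0.82 and -0.59) fell in both. The further calls in L2/3 IT were Kcnj9 (0.33), S100a10 (1.21), Gnal (0.32), Plcb4 (-0.38), Maob (-1.04) and Gnao1 (-0.45), and in L5 ET Plcb1 (0.46), Gnai1 (0.33), Adcy8 (0.52) and Gnas (-0.29). The CPM means of these L5 ET genes in GF and SPF mice were 2206 and 1911, 133.9 and 126.0, 128.0 and 106.4, and 155.2 and 224.9. Htr2b and Slc18a2 were called higher in L2/3 IT of GF mice, at 11.6 against 0.18 CPM in SPF mice and 4.25 against 0.20, and no fold is given at such low SPF levels. In CGF mice they were at 0.47 and 0.63 CPM, so both passed the filter on low counts through the GF libraries. They are counted among the 9 genes of the list that rose in this type. Over all mice Htr2b averaged 5.14 CPM in astrocytes, the highest of the PFC types, and 13.3 in Hip Sst nuclei, the highest of the Hip types. Genes of serotonin neurons were near 0 in every type, with highest means of 5.1 CPM for Tph2, 1.0 for Slc6a4 and 0.1 for Fev. Of the breakdown enzymes, Maoa was highest in endothelial nuclei (245.9 CPM in Hip and 178.5 in PFC) and Maob in choroid plexus (201).

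The genes whose pattern over the 37 named types of both regions was most like a receptor's were taken by Pearson's r of log2(mean CPM + 1) among 15154 genes, the types sharing libraries and depth. They were Pcnx2 (0.87), Khdrbs3 (0.87) and Gm15810 (0.85) for Htr1f, Col19a1 (0.76), Spock1 (0.74) and Cacng2 (0.71) for Htr2a, and Gm26849 (0.78), Gm48447 (0.76) and Gm36879 (0.74) for Htr2c. For Htr3a they were Sp8 (0.86), Igf1os (0.86) and Abcb5 (0.85), for Htr4 Faf1 (0.81), 1700008O03Rik (0.80) and Ola1 (0.80), and for Htr7 Frmpd3 (0.81), Fstl5 (0.78) and Kcnc2 (0.78). For Htr1a, Htr1b, Htr1d and Htr5a the highest type means were only 7.26 to 9.35 CPM, in part in types with few UMIs (Htr1a was highest in Hip microglia, with 0 to 4 a library), so that the likeness describes sparse counts and no pattern is read from it. The genes were Lmo1 (0.77), C1ql2 (0.74) and Cpsf7 (0.74) for Htr1a, Cinp (0.71), Egr4 (0.68) and Tmem42 (0.65) for Htr1b, Ulk3 (0.69), Olfr112 (0.67) and Olfr118 (0.67) for Htr1d, and Cdan1 (0.75), Gdap1l1 (0.72) and Plxna3 (0.68) for Htr5a.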

How the data were processed

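The authors deposited 1 table of UMI counts per library, made with Cell Ranger from droplet 3′ libraries of sucrose-purified nuclei, on mm10 with Ensembl gene models (version 3.1.0 by the file headers); whether intronic reads were counted and strand used is not given in the sources used here. Counts were used as deposited. Barcodes with under 200 genes or over 10% mitochondrial UMIs were removed (1924 of 139924), following the study's limits. The remaining nuclei were clustered per region (2000 variable genes, 10 components, 20 neighbours, Leiden resolution 1, leidenalg 0.10.2) and excitatory neurons and interneurons each again with 20 components and values centred per library. Clusters were named from fixed marker lists without receptor genes. A Hip cluster of 856 nuclei was left unnamed, its Cajal-Retzius list being higher in Lamp5 nuclei. Each nucleus had to hold at least 1 UMI of its class's list and more of it, scaled, than of any other class. This removed 6.16 to 7.71% of named nuclei in Hip groups and 9.28 to 12.4% in PFC groups. Among microglia it removed 24.9% in GF, 57.6% in SPF and 56.6% in CGF Hip, and 22.2%, 67.8% and 64.2% in PFC, so microglial values rest on unequal selections. In PFC it also removed fewer GF than SPF nuclei of Sst (16.8 and 44.5%), Pvalb (12.0 and 33.8%), Sncg-Cck (10.8 and 25.9%), OPC (5.86 and 28.2%), oligodendrocytes (4.72 and 25.0%) and astrocytes (5.71 and 15.1%). Likely doublets were kept, and removing them was an alternative.

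UMIs were summed per library and type (at least 10 nuclei in every library) and tested with edgeR 4.0.16 (filterByExpr, TMM, quasi-likelihood, adjusted p below 0.05) in 1 fit of 9 libraries per region, or of 18 for the comparison of regions. The choroid plexus fit had 7 libraries, 2 holding no such nuclei. The SE beside a fold is its absolute value divided by the square root of the F statistic of the quasi-likelihood test. Every receptor and type past the threshold is named. The receptors and gene lists were chosen with earlier results of these data known. Alternatives were DESeq2 1.42.0 and its size factors, no filter, no gate, doublets removed, thinning to equal mean UMIs per nucleus, removal of the dependence of library values on the length and GC content of genes (known for 99.55% of them), 2 groups alone, each mouse left out, and for levels Leiden resolution 2. Regions were not compared with the size factors of DESeq2, without the gate, with the length and GC trend removed or in 2 groups alone. The interaction of group and region was rerun only with mice left out. Libraries of the same mouse share a number in the labels. Over 10 types and 9 mice their deviations correlated with a median r of 0.048 (-0.01 to 0.18, above 0 in 86 of 90), and the mouse was used as a block in an alternative fit. On simulated counts of 4 types 63 to 72% of genes changed 2-fold and 14 to 38% of those changed 1.5-fold were recovered. Only 200 genes of a type were changed there. Between GF and SPF, 46.7 to 59% of genes were called in CA1, DG granule and L2/3 IT, so the recovery may differ in those contrasts.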

Additional observations from a re-analysis of the deposited data

Results flagged for a closer look

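For 4 of the 40 receptor and type combinations that passed the filter on low counts over the libraries of both regions together, the difference of GF from SPF itself differed between Hip and PFC (edgeR interaction term, adjusted over all genes of a type, chosen after seeing the data), where 18.4% of all combinations did. Each value is the Hip fold minus the PFC fold on the log2 scale. It was -1.23 for Htr4 in Pvalb (SE 0.33, adjusted p = 0.00452) and -1.72 for Htr4 in Sst (SE 0.46, adjusted p = 0.00526). For Htr2c in Sncg-Cck it was -1.74 (SE 0.49, adjusted p = 0.0139) and for Htr7 in Lamp5 -1.77 (SE 0.65, adjusted p = 0.0481). Htr7 in Lamp5 and Htr4 in Sst did not pass that filter in PFC alone and entered through Hip, where they are higher. In PFC of SPF mice they had 0, 2 and 3 and 4, 3 and 6 UMIs, so that these values rest on few counts. With each GF or SPF mouse left out in turn, the values in Sst (-1.98 to -1.47) and in Pvalb (-1.64 to -1.03, and -1.05 without GF 7) still passed. That in Sncg-Cck did not pass without GF 5 (-1.47) or GF 7 (-1.49), and that in Lamp5 did not without GF 5, GF 7, SPF 30 or SPF 31 (-1.86 to -1.20, with -1.64 and adjusted p = 0.0998 without GF 7). The PFC libraries of GF mice were deeper than those of SPF mice while those of Hip were not, and library depth and region cannot be told apart in these values. The corresponding term for CGF against SPF was called in none of 40, and in 0.00115% of all combinations.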

How the results depend on the processing

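Counts of called combinations moved by over 1.5 times in few settings. The shares of all genes called under each alternative are not given in this report, so these recounts describe stability alone. With the length and GC trend removed they were 11 for GF against SPF in Hip (21 as reported, 1 of the 11 higher), 1 for CGF against SPF in Hip (2) and 21 for GF against CGF in PFC (12). CGF against SPF in Hip gave 1 with doublets removed, 1 with thinning and 6 without the filter on low counts. Hip against PFC in GF mice gave 5 of 27 tested after thinning (13 of 40). Leaving out 1 mouse gave 17 to 25, 1 to 2 and 20 to 28 calls in Hip for GF against SPF, CGF against SPF and GF against CGF, and 10 to 17, 0 to 0 and 8 to 15 in PFC. For CGF against SPF in Hip the 1 came without CGF 19, GF 7, SPF 30, SPF 31 or SPF 32. Hip against PFC gave 8 to 9 in GF mice (8 without GF 6 or GF 7) and 12 to 17 in SPF mice (12 without SPF 30). With the mouse as a replicate block it gave 15 and 25, and apart from the added calls named above no call changed. DESeq2 gave 18, 2 and 23 in Hip, 15, 0 and 9 in PFC, and 11 and 18 between regions. Htr2c in choroid plexus, never called, changed sign for GF against SPF with the trend removed (0.31), with doublets removed (0.0035) and without SPF 31 (0.023; -0.13 to 0.023 over the mice left out), and for GF against CGF with the trend removed (0.14). The other ranges were 0.12 to 0.31 for CGF against SPF and -0.35 to -0.21 for GF against CGF. Removing the trend turned Htr1f in CA3 (GF against CGF, 0.11), Htr4 in DG granule (GF against SPF, 0.044) and Htr1f in L5 ET (GF against SPF, -0.11), and ended 30 more of the 74 calls between groups. The cause was not tested. Of the calls, 30 of 74 between groups and 15 of 32 between regions held under every setting in which they were tested, and the highest level of each receptor stayed within 1 SD under all 3 alternatives. The calls between regions met fewer settings, without removal of the trend or of the gate, so the 2 counts are not alike. At this depth Htr1a, Htr1b, Htr1d and Htr5a did not exceed the glial level in all libraries of any neuron type.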
